A study of Mus musculus with 6 samples.

Results

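The genes described here encode the core machinery that makes and loads microRNAs: the nuclear processing enzyme Drosha and its partner Dgcr8, the export receptor Xpo5, the cytoplasmic enzyme Dicer1 and its partner Tarbp2, the Argonaute genes Ago1, Ago2 and Ago3, and the RNA-binding regulators Lin28a and Lin28b. They were taken by gene symbol, and all 10 were found among the 10128 genes of the authors' deposited table. RNA sequencing had been done on mouse embryonic stem (ES) cells derived from the E14Tg2a line, of 129/Ola background, kept on gelatin in medium with serum and LIF, the cytokine that holds ES cells undifferentiated. The groups were 3 libraries from Tex19.1+/- cells, which keep a working copy of Tex19.1 and carry a mutant allele as well, and 3 of Tex19.1-/- cells, which have no working copy. Tex19.1 is active in germ cells, placenta and pluripotent cells of mammals. The comparison asks which transcripts differ in ES cells that have lost it. The labels do not say whether libraries of a genotype came from separate cultures or clones, so p-values measure the spread between these libraries, which may be technical.

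MicroRNAs are short RNAs cut from hairpins in longer transcripts. In the nucleus Drosha, an RNase III enzyme, and Dgcr8, which binds the hairpin, crop the primary transcript. Exportin 5 carries the precursor hairpin to the cytoplasm. There Dicer trims the loop away, helped by the double-stranded RNA-binding protein encoded by Tarbp2, and a strand is loaded into an Argonaute protein, which uses bases 2 to 8 of the microRNA, the seed, to find target transcripts. ES cells are rich in Lin28 proteins, which bind let-7 precursors and keep them from maturing, and in microRNAs of the miR-290 and miR-302 clusters.

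The sequences below show what these proteins act on, taken from RefSeq on GRCm38.p6, with seeds in capitals. The first group shares the let-7 seed and the second the seed of the miR-290 and miR-302 clusters.
let-7a-5p: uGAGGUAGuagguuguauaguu
let-7g-5p: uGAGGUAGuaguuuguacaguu
miR-98-5p: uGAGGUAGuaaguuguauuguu
miR-294-3p: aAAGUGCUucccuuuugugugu
miR-302b-3p: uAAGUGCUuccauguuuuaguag

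Lin28 proteins recognise the letters GGAG in the loop region of let-7 precursors. A search of 12 let-7 family hairpins, on the RNA strand alone, found GGAG between the arms in 9 of them. Of all 1005 hairpins in the same RefSeq table, 44.5% held these letters at any place. A hairpin with the letters, in capitals, and another of the 3 let-7 family hairpins without them are shown; they lie at chr9:106178840-106178927 on the plus strand and at chr15:85707319-85707403 on the plus strand.
Mirlet7g: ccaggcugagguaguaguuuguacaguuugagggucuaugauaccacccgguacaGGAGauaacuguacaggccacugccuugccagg
Mirlet7b: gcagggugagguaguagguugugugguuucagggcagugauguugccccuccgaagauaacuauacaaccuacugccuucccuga

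The authors' deposited table gives each gene's log2 fold change, p-value and adjusted p-value, and its mean level as log2 CPM, a read count scaled by library size. It gives no value per library, so the level in each sample and the depth of each library are unknown, and no spread between replicates can be printed. In its place each fold change below has the standard error (SE) that its p-value implies under a normal approximation. The sign was read from Tex19.1 itself, on chromosome 11 from 121146143 to 121148319: its value of -6.92 was the lowest of the authors' deposited table, so a positive log2 fold change means more RNA in Tex19.1-/- cells. That gene therefore sets the direction and is no independent check of the labels. A gene is called changed where the authors' adjusted p is under 0.05; 25.2% of all genes were called higher and 26.5% lower in this way, 51.7% in all.

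Most genes of the machinery were called higher in Tex19.1-/- cells. Of the 10 members, 8 were called higher, 1 lower and 1 did not pass, against the 25.2% and 26.5% of all genes. That split of 8 to 1 was 8 to 0 with the median of 10 neighbouring genes subtracted and 7 to 0 with a GC content and length trend removed. The median of their log2 fold changes was 0.22, beside 0.00 for all genes of the authors' deposited table. The largest value belonged to Dicer1, followed by Lin28b and Lin28a, while Ago2 stood alone below 0. Each of the 95% intervals implied by the p-values overlapped that of the next gene in this order; differences between members were not tested.

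**Figure D1:**
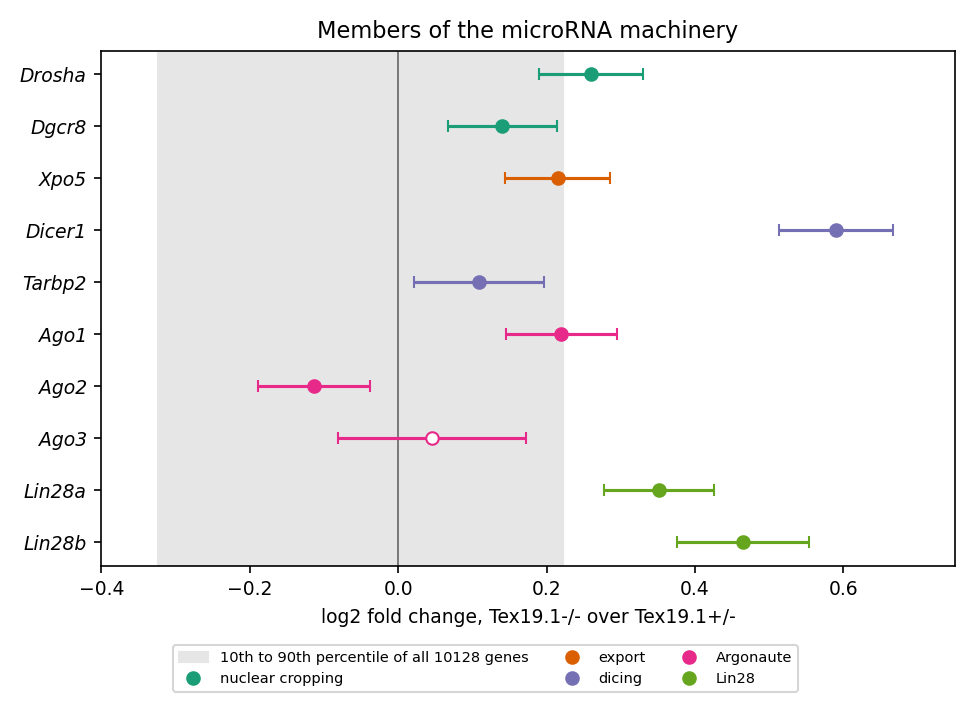
Log2 fold change of each member (Tex19.1-/- over Tex19.1+/-, from the authors' deposited table) with the 95% interval implied by its p-value; filled points have an adjusted p under 0.05, and the grey band spans -0.32 to 0.22, the 10th to 90th percentile of all genes. Dicer1 at 0.59, Lin28b at 0.47 and Lin28a at 0.35 lie to the right of the band with their whole intervals, and Ago2 at -0.11 lies to the left of 0.

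Both genes of the nuclear cropping step were higher. Drosha, on chromosome 15 from 12824815 to 12935291 (GRCm38, plus strand), had a log2 fold change of 0.26 (SE 0.04, adjusted p = 2.66e-12) per the authors' deposited table, which is a level 19.7% higher. Dgcr8, on chromosome 16 from 18253948 to 18289246 (minus strand), had a smaller log2 fold change of 0.14 (SE 0.04, adjusted p = 0.000556) there, a level 10.2% higher. The Dgcr8 transcript holds hairpins that the Drosha complex itself can cut, and the gene overlaps Mir1306 on its own strand and Trmt2a on the other. Trmt2a stood at 0.05 (adjusted p = 0.41) per the authors' deposited table. Mean expression was 196 CPM for Drosha and 76.8 CPM for Dgcr8. Per kilobase of a representative transcript, the level of Drosha was 2.41 times that of Dgcr8. With Bonferroni adjustment Dgcr8 no longer passed, at the same fold change.

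Xpo5, which encodes the receptor that moves precursor hairpins out of the nucleus, lies on chromosome 17 from 46202782 to 46243598 (plus strand). In Tex19.1-/- cells it was higher by 0.21 on the log2 scale (SE 0.04, adjusted p = 1.97e-08) per the authors' deposited table, 1.16 times the level in Tex19.1+/- cells, at a mean of 106.3 CPM. Its value was above that of each of its 10 nearest measured genes, which ranged from -0.45 to 0.11.

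The dicing step held the largest change. Dicer1, on chromosome 12 from 104687742 to 104751952 (minus strand), had a log2 fold change of 0.59 (SE 0.04, 95% interval 0.51 to 0.67, adjusted p = 1.98e-49) per the authors' deposited table. Its level was thus 50.6% higher in Tex19.1-/- cells, at a mean of 83.4 CPM, and 1.57% of all genes had a higher fold change. Among the genes nearest to it in mean expression Dicer1 ranked number 3 from the top, at the percentile 99.3. Tarbp2, on chromosome 15 from 102518192 to 102523676 (plus strand), encodes the partner that steadies Dicer on its substrates. It stood at 0.11 (SE 0.04, adjusted p = 0.0304) per the authors' deposited table, a level 7.82% higher. Per kilobase of transcript the level of Dicer1 was 0.174 times that of Tarbp2. Tarbp2 did not pass at an adjusted p under 0.01, with Bonferroni adjustment, against genes of like expression (adjusted p = 0.0666), or with a GC content and length trend removed (adjusted p = 0.081).

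The coding sequence of Dicer1 holds 4 matches to the let-7 seed, that is the letters CTACCTC on the transcript strand, and 3 of them are followed by A, a stronger form of match. They are shown because Dicer makes let-7 and is a known let-7 target. Of 9609 genes with a coding transcript, 15.1% had a match in the coding sequence and 9 had at least 4. The Dicer1 coding sequence is 5721 bases long, and 316 of the genes had a coding sequence of at least that length, 5 of them with at least 4 matches. Matches in capitals, on the minus strand of GRCm38, lie at chr12:104706555-104706581, chr12:104702799-104702826, chr12:104702691-104702718 and chr12:104694691-104694718 in this order.
Dicer1 coding site 1: tcagcctactgtgttCTACCTCttaat
Dicer1 coding site 2: tacctgtacaaccaaCTACCTCAtatcc
Dicer1 coding site 3: ggaacgctaacacatCTACCTCAgatgg
Dicer1 coding site 4: agatgcgattttggaCTACCTCAtaacc

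Of the Argonaute genes, Ago1 was called higher, Ago2 lower, and Ago3 did not pass. Ago1, on chromosome 4 from 126435012 to 126468583 (minus strand), had a log2 fold change of 0.22 (SE 0.04, adjusted p = 6.09e-08) per the authors' deposited table, a level 16.5% higher. Ago2, on chromosome 15 from 73095844 to 73184935 (minus strand), encodes the Argonaute that can itself cut a target. It was called lower, at -0.11 (SE 0.04, adjusted p = 0.00825) per the authors' deposited table, a difference in level of -7.53%. This call did not pass with the median of 10 neighbouring genes subtracted (-0.06, adjusted p = 0.16), with a GC content and length trend removed (-0.03, adjusted p = 0.526) or with Bonferroni adjustment. Ago2 overlaps Chrac1 on the other strand, a gene at 0.21 (adjusted p = 0.00038) per the authors' deposited table.

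Ago3 lies next to Ago1, on chromosome 4 from 126331704 to 126429556 (minus strand). It stood at 0.05 (SE 0.06, 95% interval -0.08 to 0.17, adjusted p = 0.575) per the authors' deposited table and did not pass. Its mean of 13.98 CPM was the lowest of the 10 members. Mean expression was 76.4 CPM for Ago1 and 164.4 CPM for Ago2. Per kilobase of transcript, the level of Ago1 was 11.8 times that of Ago3 and 0.887 times that of Ago2. These ratios assume annotated transcripts of 7227 bases for Ago1, 13800 for Ago2 and 15595 for Ago3. Whether the cells used the long 3′ UTRs of Ago2 and Ago3 is unknown. Parts of the Argonaute genes are alike in sequence, and how reads that fit several genes were treated is not given in the sources used here.

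Both Lin28 genes were higher. Lin28a, on chromosome 4 from 134003330 to 134018841 (minus strand), encodes the form that acts mainly in the cytoplasm, where it recruits uridylating enzymes to let-7 precursors. Its log2 fold change was 0.35 (SE 0.04, adjusted p = 3.95e-19) per the authors' deposited table, a level 27.6% higher. Lin28b, on chromosome 10 from 45376620 to 45486395 (minus strand), stood at 0.47 (SE 0.05, adjusted p = 2.54e-23) there, a level 38.0% higher. Lin28a was the most abundant member, at a mean of 330.1 CPM against 34.3 CPM for Lin28b, and per kilobase of transcript it was 14.9 times as abundant. Among the genes nearest in mean expression, Lin28a was at the percentile 97.7 and Lin28b at 98.0.

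Lin28 transcripts are known targets of let-7, and their 3′ untranslated regions (UTRs) hold matches to its seed. Of 9547 genes with an annotated 3′ UTR, 10.0% held at least 1 such match and 3.53% held 1 followed by A. Both Lin28 3′ UTRs are longer than 2000 bases. Among genes with at least this length, 78.7% held no match and 7.92% held 1 followed by A. Lin28a had 2 matches, both followed by A, and Lin28b had 4, of which 1 was followed by A. The matches of Lin28a, and that of Lin28b with the A, are shown in capitals; they lie on the minus strand at chr4:134005184-134005211, chr4:134004546-134004573 and chr10:45381017-45381044.
Lin28a 3′ UTR site 1: gcacagcctgttgaaCTACCTCAttttt
Lin28a 3′ UTR site 2: gagatcgccacaaacCTACCTCActgtg
Lin28b 3′ UTR site 1: acccgggcgggaagtCTACCTCAtgcaa

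Of the other members, Ago2 had 3 let-7 matches in its 3′ UTR, and Ago3 and Tarbp2 had 1 each. The 3′ UTRs of Ago2 and Ago3 are long, at 11064 and 12742 bases. Drosha, Dgcr8, Xpo5, Ago1 and Dicer1 had 0 let-7 matches in this region. The Drosha 3′ UTR searched was only 168 bases long, so it left little room for a match. Only 1 transcript per gene was searched, and other transcripts may differ. Members with a match thus were Lin28a, Lin28b and Tarbp2, which were called higher, Ago2, which was called lower, and Ago3, which did not pass. In the coding sequence, beside the 4 of Dicer1, Xpo5 had 2 let-7 matches and Ago3 and Lin28b had 1 each.

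**Figure D2:**
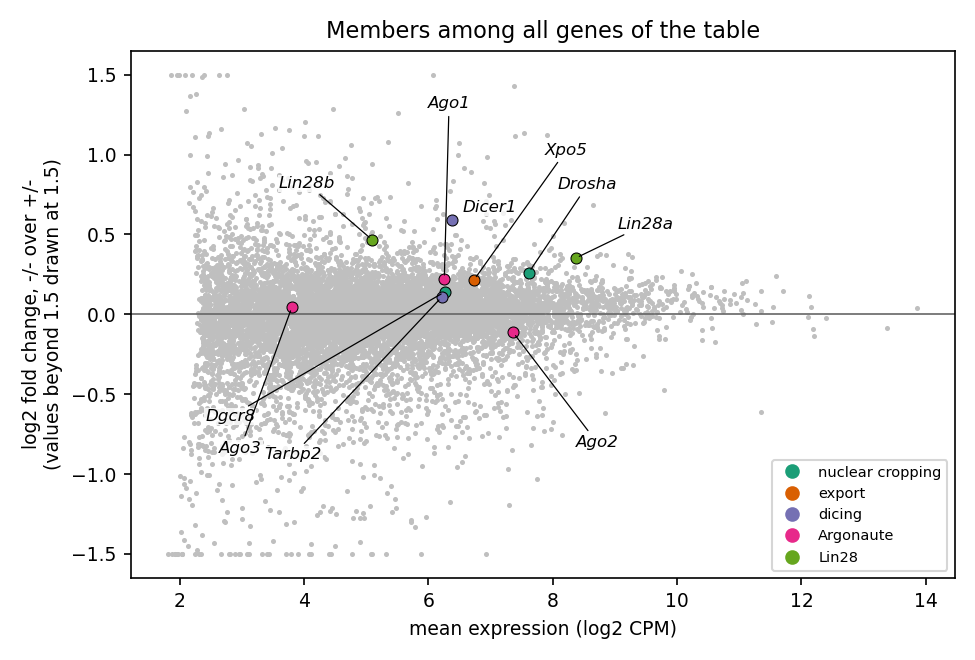
Mean expression (log2 CPM) against log2 fold change for all genes of the table (grey; values beyond 1.5 drawn at 1.5) and the 10 members (coloured by role). Lin28a is the member at the far right at 8.37 log2 CPM and Ago3 that at the far left at 3.80 log2 CPM; Dicer1, at 0.59, is the highest of the members.

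Set against genes of like expression, 6 of the 10 members fell in the top 10% by log2 fold change: Dicer1, Lin28b, Lin28a, Drosha, Xpo5 and Ago1. Their percentiles ranged from 92.4 for Ago1 to 99.3 for Dicer1. Dgcr8 and Tarbp2 were at the percentiles 82.1 and 74.8, Ago3 at 64.5 and Ago2 at 18.6. By construction about 10% of all genes do so.

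The members lie on 6 chromosomes. The median log2 fold change of the 10 nearest measured genes ranged from -0.09 beside Tarbp2 to 0.08 beside Lin28b. For 5 members, Xpo5, Dicer1, Ago1, Lin28a and Lin28b, the value was above that of all 10 neighbours. Dicer1 stood at 0.59 between Ddx24 at 0.16 and Clmn at 0.05 per the authors' deposited table. Lin28a stood at 0.35 between Dhdds at 0.07 and Crybg2 at -1.11, and Lin28b at 0.47 between Prep at 0.10 and Hace1 at 0.10 there.

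Per the authors' deposited table, Drosha lay between Pdzd2 at -0.61 and Cdh9 at 0.19, and 2 of its 10 neighbours had a higher value than Drosha, up to 0.42. Xpo5 lay between Polh at -0.14 and Polr1c at 0.08 per the authors' deposited table, and Dgcr8 between Trmt2a at 0.05 and Tango2 at -0.03. Ago1 lay between Ago3 at 0.05 and Clspn at 0.06, Ago2 between Chrac1 at 0.21 and Ptk2 at -0.01, and Tarbp2 between Map3k12 at 0.11 and Atf7 at -0.22, per the authors' deposited table. Every neighbour median was thus below the values of Dicer1, Lin28a and Lin28b.

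**Figure D3:**
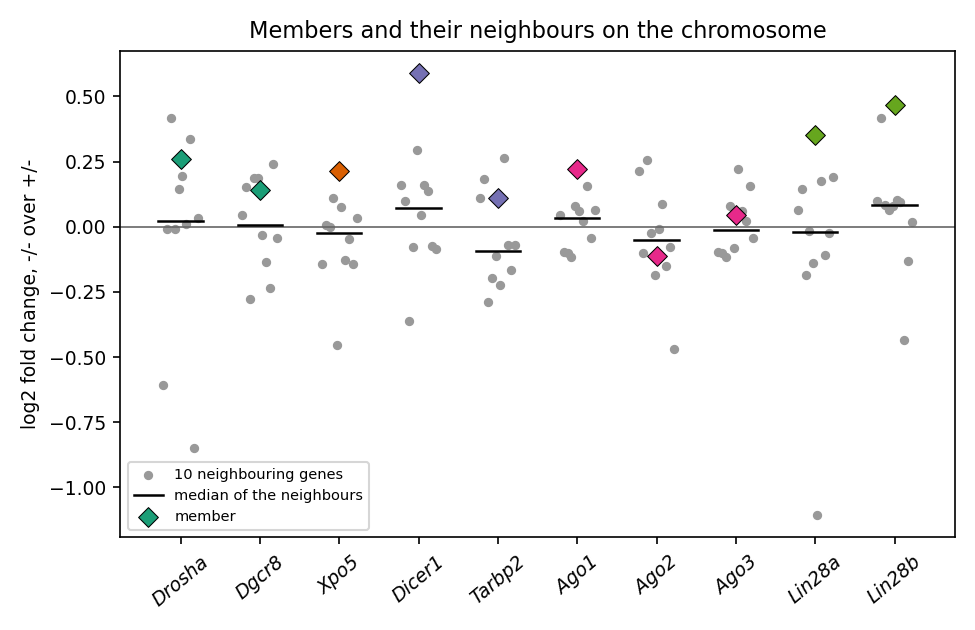
Log2 fold change (Tex19.1-/- over Tex19.1+/-) of each member (diamond) and of its 10 nearest measured genes on the chromosome (grey points, 5 on each side), with the median of the neighbours as a black line. The diamonds of Xpo5, Dicer1, Ago1, Lin28a and Lin28b lie above all of their neighbours, while those of Drosha, Dgcr8, Tarbp2, Ago2 and Ago3 lie among them.

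Marker genes of cell types moved between the groups as well. All 10 pluripotency markers were measured, at means from 163 to 1566 CPM; 4 were called higher (Zfp42, Sox2, Dppa4 and Nanog) and 3 lower (Dppa5a, Tdgf1 and Fgf4), with a median log2 fold change of 0.03. Of the endoderm markers, 10 were measured, Gata4, Gata6 and Sox7 among them, and all 10 were lower, from -2.93 to -0.56, with a median of -2.05. Of the 6 neuroectoderm markers 5 were higher and Sox1 alone was lower, with a median of 0.59. Of 10 fibroblast and feeder markers 3 were measured (Fbn1, Vim and Fn1), with Fn1 higher at 0.23 and the others lower. Thy1, Col1a1, Col1a2, Col3a1, Postn, Lum and Dcn were absent from the authors' deposited table, as were the endoderm markers Sox17 and Foxa2. Fewer cells of a type and less RNA per cell cannot be told apart in such bulk samples, and the part of these markers in the members' values was not tested.

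Over 7 lists of genes around the microRNA machinery, 40 of 117 measured genes were called higher and 21 lower, 34.2% and 17.9%, against 25.2% and 26.5% of all genes; the median log2 fold change was 0.04. That split of 40 to 21 was 32 to 27 with the median of genes of like expression subtracted. Of the partners of the nuclear cropping complex, 8 of 14 were higher and 1 lower, 57.1% and 7.14% beside 25.2% and 26.5% of all genes, with a median of 0.09. They were led in the authors' deposited table by the RNA-binding protein gene Hnrnpa1 at 0.20, Erh, whose product binds Dgcr8, at 0.16, the splicing factor gene Srsf3 at 0.15 and Safb2 at 0.15. The lower gene was Ncbp2, of the cap-binding complex, at -0.13. With the median of genes of like expression subtracted the split of 8 to 1 was 5 to 2, and with that of 10 neighbours 3 to 1.

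Of the genes that act at export, dicing and loading, 3 of 14 were higher, 1 was lower and 10 did not pass, with a median of -0.00. The share higher was 21.4%, near the 25.2% of all genes, and the share lower was 7.14% beside 26.5%; of all 10128 genes 4892 did not pass. The cochaperone genes Fkbp4 at 0.23 and Ptges3 at 0.19 and the chaperone gene Hsp90aa1 at 0.12 were higher in the authors' deposited table, and Rangap1, which drives the Ran cycle that exportin 5 uses, was lower at -0.12. The split of 3 to 1 was 2 to 4 with the median of genes of like expression subtracted and 5 to 1 with that of neighbours. Effectors of silencing downstream of Argonaute, such as the deadenylase and decapping complexes, numbered 32, of which 5 were higher, 3 lower and 24 did not pass, with a median of 0.03. That is 15.6% higher and 9.38% lower, beside 25.2% and 26.5% of all genes. Of the genes of the deadenylase complex, Cnot6 was at 0.20, its paralog Cnot6l at -0.27 and Cnot2 at 0.13 per the authors' deposited table. Wtip, of the LIM protein family that binds Argonaute complexes, was at -0.16 there. Cnot11, Cnot8 and Cnot3, of the same deadenylase complex, were the other genes called higher, and Tnrc6c, which encodes an Argonaute partner, the other lower. The split was 8 to 4 with the median of neighbours subtracted and 3 to 3 with that of all genes or of genes of like expression.

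Among genes that tail precursors or turn microRNAs over, 3 of 11 were higher and 3 lower, 27.3% each, near the 25.2% and 26.5% of all genes. The exonuclease gene Xrn2, on chromosome 2, had the largest value at 0.59 per the authors' deposited table, beside a median of 0.41 for its 10 neighbours, so the stretch around it was higher too. Zswim8, which directs the decay of microRNAs bound to certain targets, was at -0.28, the deadenylase gene Parn at 0.18 and Zcchc6, which encodes a terminal uridylyltransferase that acts with Lin28a, at -0.15 per the authors' deposited table. Dis3l2, which degrades uridylated let-7 precursors, was also higher at 0.16, and Tsnax lower at -0.11.

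**Figure D4:**
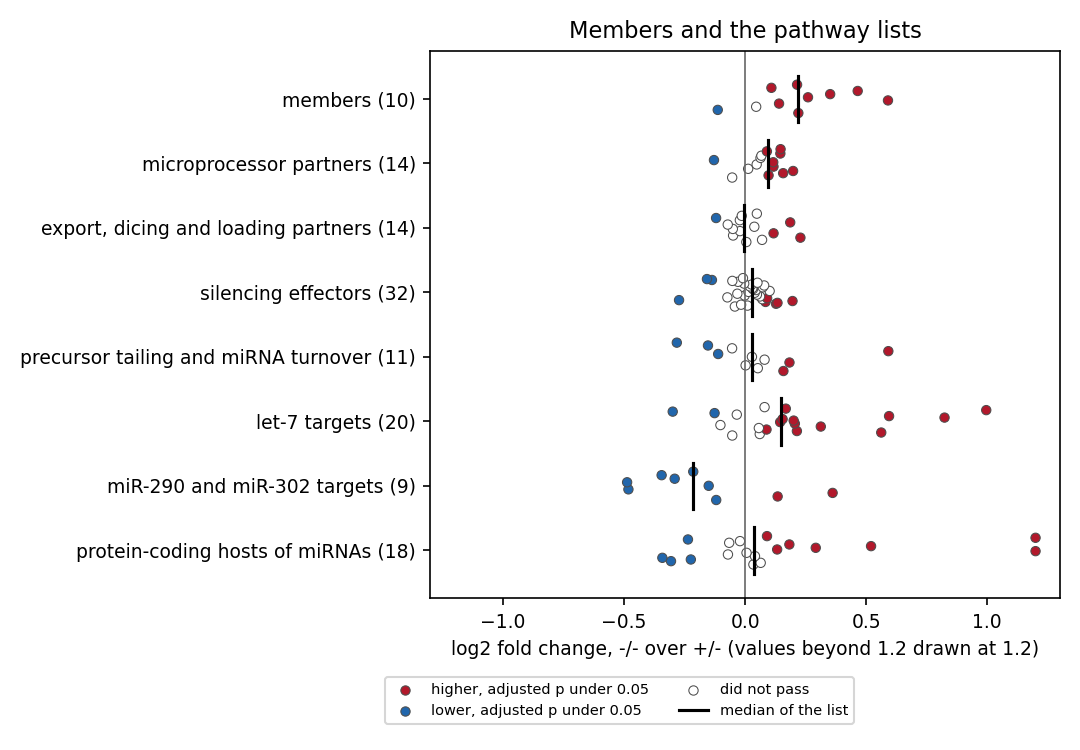
Log2 fold change (Tex19.1-/- over Tex19.1+/-) of every measured gene of the members and of 7 pathway lists, with the number measured in brackets; red and blue points were called higher and lower, white points did not pass, and the black line is the median. The medians run from -0.21 for the miR-290 and miR-302 targets to 0.22 for the members; Mest at 4.91 and Slit2 at 1.54 are drawn at 1.2.

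Of 20 measured genes known as let-7 targets, 12 were higher and 2 lower, with a median log2 fold change of 0.15, while 25.2% of all genes were higher and 26.5% lower. The authors' deposited table put the proto-oncogene Mycn highest, at 1.00 (adjusted p = 7.38e-122), and next Igf2bp2 at 0.82 (adjusted p = 2.72e-97), which encodes an RNA-binding protein of fetal tissues. They were followed there by its paralog Igf2bp3 at 0.59 and the cyclin gene Ccnd1 at 0.56. Myc, a further gene of the list, was lower at -0.30 per the authors' deposited table; it was chosen after its value was seen.

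Of the 14 listed let-7 target genes with a match in the 3′ UTR, 8 were higher and 0 lower, with a median of 0.12; of all 956 genes with such a match 20.9% were higher and 30.4% lower. Of the 6 without a match, Mycn among them, 4 were higher and 2 lower, with a median of 0.26, beside 25.7% and 26.2% of all genes without a match. The matches of Igf2bp2 and Igf2bp3, the genes with a match that had the largest values, lie on the minus strand at chr16:22059468-22059495 and chr6:49086782-49086809 and are in capitals.
Igf2bp2 3′ UTR site: acacacaaataaaagCTACCTCAggtgt
Igf2bp3 3′ UTR site: tgcatttttactcaaCTACCTCAggtat

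Of 9 measured genes known as targets of the miR-290 and miR-302 clusters, 7 were lower and 2 higher, 77.8% and 22.2%, with a median of -0.21. Of all genes 26.5% were lower and 25.2% higher, so the share higher was near that of all genes. All 9 held a match to that seed in the 3′ UTR, AGCACTT on the transcript strand. Such a match was found in 17.0% of all 3′ UTRs, and of the genes with it 29.7% were lower and 19.8% higher. The cell cycle inhibitor gene Cdkn1a was at -0.48 (adjusted p = 1.23e-24), the methyl-CpG-binding protein gene Mbd2 at -0.49 and the small GTPase gene Rhoc at -0.34 per the authors' deposited table, while the caspase gene Casp2 was higher at 0.36, as was Arid4b at 0.13. With the median of 10 neighbours subtracted the split was 3 higher and 5 lower. Cdkn1a is also a target of p53. Its 2 matches lie on the plus strand at chr17:29099813-29099839 and chr17:29100485-29100512. With its next base the first also holds GCACTTT, the seed match of the miR-17 family.
Cdkn1a 3′ UTR site 1: tcctcagacctgaatAGCACTTtggaa
Cdkn1a 3′ UTR site 2: taccgtgggtgtcaaAGCACTTAgtggg

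Over all genes, those with a seed match had a slightly lower median for each of 4 microRNA families, let-7 among them. The median log2 fold change was -0.03 for the 337 genes with a let-7 match followed by A, against 0.00 for the 8591 genes without a match. For the miR-290 and miR-302 seed it was -0.02 in 345 genes, for the miR-17 family, with the match GCACTTT, it was -0.04 in 420 genes, and for miR-335-5p, with the match GCTCTTG, it was -0.03 in 311 genes. MiR-335 is encoded within Mest, which stood at 4.91 per the authors' deposited table. Genes with matches had longer 3′ UTRs, with medians from 2535 to 2846 bases in these classes. Medians were 888 to 970 bases for genes without a match and 1072 bases for all genes.

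Among genes with a 3′ UTR of at least 2000 bases the same medians were -0.05 with and -0.03 without a let-7 match, -0.03 and -0.03 for miR-290 and miR-302, -0.05 and -0.03 for miR-17, and -0.03 and -0.03 for miR-335-5p. Beside these, the median size of a single gene's log2 fold change was 0.11. With 3′ UTRs of that length, 13.7% of genes with a miR-290 and miR-302 match followed by A were higher, against 21.7% without a match. The shares lower were 31.8% and 31.9%. For miR-17 they were 15.6% and 20.7% higher, and 39.0% and 31.5% lower. For let-7 they were 21.1% and 20.3% higher, and 34.9% and 31.7% lower. For miR-335-5p they were 20.3% and 20.6% higher, and 29.7% and 32.0% lower. The class medians and shares describe these libraries and were not tested.

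**Figure D5:**
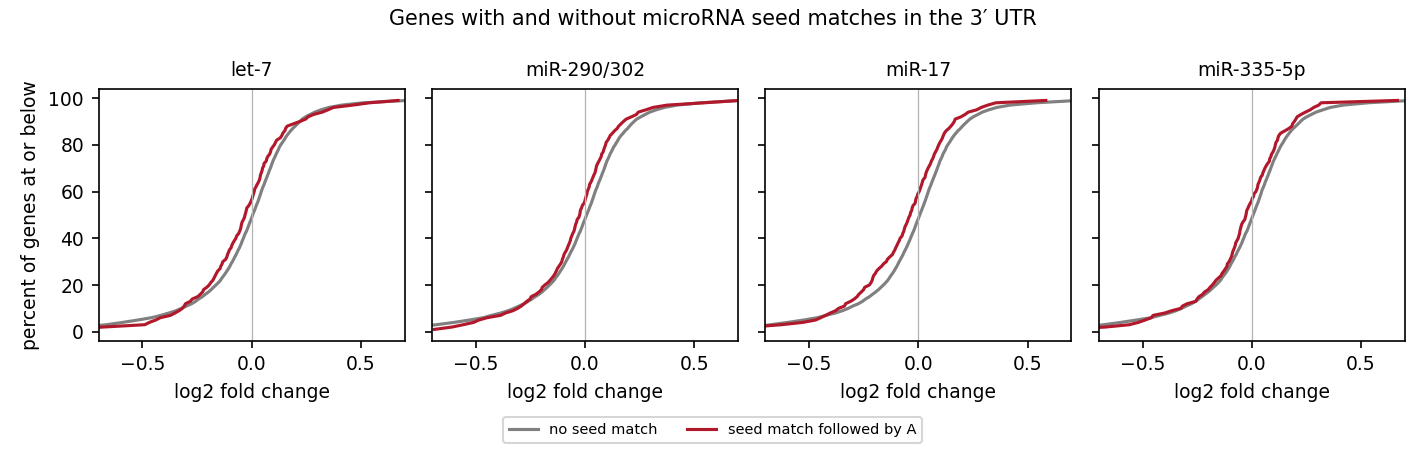
Percent of genes at or below each log2 fold change (Tex19.1-/- over Tex19.1+/-) for genes with a 3′ UTR seed match followed by A (red) and without a seed match (grey), 1 panel for each of 4 microRNA families. In every panel the red curve lies slightly to the left of the grey curve near 0, with medians of -0.03, -0.02, -0.04 and -0.03 against 0.00 to 0.01.

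Of the protein-coding genes that host microRNAs, 7 of 18 were higher and 4 lower, 38.9% and 22.2% beside 25.2% and 26.5% of all genes, with a median of 0.04. With the median of 10 neighbours subtracted, 3 were higher and 6 lower. Mest, an imprinted gene, had the largest value, followed in the authors' deposited table by Slit2, a guidance gene that hosts a miR-218 copy, at 1.54. The mean of Slit2 was 4.61 CPM, the lowest of the measured genes of all 7 lists. The pantothenate kinase genes host miR-103 and miR-107. Of these Pank2, on chromosome 2, was at 0.52 per the authors' deposited table beside a neighbour median of 0.49. Pank1 at 0.29 and Pank3 at 0.18 were called higher there as well. Dnm2, a dynamin gene, was lower at -0.34 per the authors' deposited table, as were Ctdsp1, Ctdsp2 and Sfmbt2. Mature microRNAs were not analysed here.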

How the data were processed

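Libraries had been made with a stranded mRNA kit from TRIzol-lysed cells and sequenced in pairs, per the labels' protocols. Tools listed in the submitters' processing notes are HTSeq 0.11.2, TopHat2 2.1.0, Trim Galore 0.4.1 and edgeR (no version), with mm10 as the build. Not given in the sources used here are the annotation, the strand setting, the filter and which edgeR test was run. The table that the authors deposited holds, per the file headers, 1 log2 fold change, 1 mean log2 CPM, 1 p-value and 1 adjusted p-value a gene. The lowest mean was 1.82 log2 CPM, so lower genes are not in the table.

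All p-values are the authors', adjusted over all genes, from edgeR per those notes. The planned count model needs values per library and was not run. From each p-value and fold change an SE was derived (scipy 1.17.1). Alternatives that subtract a median or a lowess trend (statsmodels 0.14.6, span 0.3, on fold changes limited to 1 in size) used it with Benjamini-Hochberg adjustment. Simulated data with normal noise served to test the SE step, subtraction of the median of all genes and the adjustment. The trend and the medians of like or neighbouring genes were not tested so. Normal noise cannot check the normal approximation itself. Calls were also made with Bonferroni adjustment, at an adjusted p under 0.01, and among genes of at least 16 CPM. Positions and transcripts come from GENCODE M21, whose build GRCm38 is the same assembly as mm10; 9710 genes matched, 138 of them through older symbols. Levels per kilobase and seed matches use 1 coding transcript per gene. All 12 let-7 family hairpins shown or counted come from RefSeq.

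The members and gene lists were chosen with earlier results of these data known. Named genes are the members, up to 4 genes of each list with the smallest p-value, and the nearest measured gene on each side of a called member; Tex19.1 gives the direction. Further genes and markers of short counts were named after their values were seen.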

Additional observations from a re-analysis of the deposited data

How the results depend on the processing

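Of 69 alternative results for single members, 61 kept their side of the threshold, 8 lost it and 0 changed sign. The 8 belong to Dgcr8, Ago2 and Tarbp2. The stricter thresholds and the CPM minimum leave a fold change as it is. A sign could thus change only where a median or trend was subtracted. The number of members higher stayed between 6 and 8 under all 7 alternatives. The number lower, 1 as reported, was 0 with Bonferroni adjustment, with the median of 10 neighbours subtracted and with the GC content and length trend removed, so that the split of 8 to 1 became 6 to 0, 8 to 0 and 7 to 0. With Bonferroni adjustment the pathway lists held 17 genes higher and 9 lower; higher and lower were 1 and 0 for the partners of the cropping complex, 2 and 0 for export, dicing and loading, 1 and 0 for silencing effectors, 1 and 1 for tailing and turnover, 7 and 1 for let-7 targets, 1 and 3 for miR-290 and miR-302 targets, and 4 and 4 for host genes. With the median of 10 neighbours subtracted, 3 partners of the cropping complex, 5 genes of export, dicing and loading, 8 silencing effectors and 3 host genes were higher; host genes then had 6 lower, and miR-290 and miR-302 targets 3 higher and 5 lower. With the median of genes of like expression subtracted, 5 partners of the cropping complex were higher and 2 lower, 2 genes of export, dicing and loading were higher and 4 lower, and 3 silencing effectors were higher. At an adjusted p under 0.01, 0 partners of the cropping complex were lower and 3 silencing effectors were higher; with the median of all genes subtracted 3 silencing effectors were higher and 3 lower. Over all 10128 genes, 970 were higher and 1443 lower with Bonferroni adjustment, and 1975 and 2212 at an adjusted p under 0.01. These counts were 2476 and 2742 with the median of all genes subtracted, and 2370 and 2690 with that of genes of like expression. With that of 10 neighbours they were 2552 and 2640 of 9710 genes. With the trend removed they were 2312 and 2511 of 9609. Among genes of at least 16 CPM they were 1992 and 1833 of 7401. Fewer genes pass a stricter threshold by construction. For the other alternatives the cause was not tested. The number of members in the top 10% of like genes was 6 with fewer and with more genes compared, and 4 members lay above all neighbours with 10 on each side. No paired analysis was possible because the table holds no value per library, and leaving out a replicate was not run for the same reason. The implied SE rests on a normal approximation, and depth per library is unknown.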

Other observations

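Non-coding genes that give rise to microRNAs were in the table as well; they were chosen after the values were seen. Mir17hg, the primary transcript of the miR-17 to miR-92 cluster, on chromosome 14 from 115042879 to 115046727, stood at -0.51 (SE 0.05, adjusted p = 3.58e-25) in the authors' deposited table at a mean of 97.2 CPM. Its 10 nearest measured genes had a median of -0.61, so its region was lower with it. Mir22hg was lower at -0.28 (SE 0.08, adjusted p = 0.00184) in the authors' deposited table, at 5.81 CPM. Mirg, the host of an imprinted microRNA cluster on chromosome 12, stood at 0.11 (adjusted p = 0.0562) and Mir124a-1hg at 0.04 (adjusted p = 0.665) there, and neither passed. Mir692-2, at a mean of 203.5 CPM, stood at 0.09 (adjusted p = 0.0509) and did not pass either.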
